A study of Mus musculus with 30 samples.

Results

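The insulin-like growth factor (IGF) axis was followed across 3 pools of spinal motoneurons. The 9 genes considered were the ligands Igf1 and Igf2, the receptors Igf1r and Igf2r, and the binding proteins Igfbp2, Igfbp3, Igfbp4, Igfbp5 and Igfbp6. The genes were chosen with earlier results of these data known, and their probe sets were found by name in the array's annotation. Of the 9 genes, 8 had a probe set of their own, 13 probe sets in all. The array held 12422 probe sets, which stood for 8251 named genes. The 1 probe set that lists Igfbp5 also lists another gene, so no Igfbp5 value is given.

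The IGF ligands are secreted peptides that bind the IGF1 receptor, a tyrosine kinase whose signal runs through PI3 kinase with AKT and through RAS with MAP kinases. The IGF2 receptor, which is also a mannose-6-phosphate receptor, carries IGF2 and lysosomal enzymes into the cell and does not signal as a kinase. The binding proteins hold the ligands in the extracellular space and control how much reaches the receptors. In the adult nervous system Igf2 is known above all as a transcript of the meninges, the choroid plexus and blood vessels, and IGF1 is known as a survival factor for motoneurons.

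All samples came from laser captures of the adult mouse spinal cord, and every animal was a sham-operated control. IML samples held motoneurons of the intermediolateral column, the autonomic preganglionic neurons. LMN and MMN samples held lateral and medial motoneurons, which are somatic. Each of 5 animals gave all 3 pools, with 400 captures per pool, and the RNA of a pool was split over 2 arrays. The design thus held 30 arrays and 15 samples, 5 per pool, and every n below is a number of animals. The labels state no strain, sex or age beyond adult. The comparisons asked how the autonomic pool differs from the somatic pools and how the somatic pools differ from each other.

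Values are log2 intensities averaged over the 2 arrays of a sample, and differences are paired within animals with standard errors (SE) from limma. A difference is called at a Benjamini-Hochberg adjusted p under 0.05 over the whole array. The 14 meningeal and fibroblast markers, among them the collagen genes Col1a1, Col1a2 and Col3a1, had a mean level of 8.24 to 9.27 in IML samples, 7.16 to 8.49 in LMN samples and 7.67 to 9.27 in MMN samples. The 7 measured motoneuron markers, among them the neurofilament gene Nefh, had a mean level of 8.39 to 8.83 in IML samples, 8.71 to 9.86 in LMN samples and 8.79 to 9.50 in MMN samples. The LMN sample of animal 2 stood at the high end of LMN for the first list, with 8.49, and at the low end for the second, with 8.71. In these bulk captures, fewer cells of a type, less RNA per cell and a difference between neuron types cannot be told apart.

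The promoter windows of the 4 genes whose brightest probe set was called in any comparison are shown first, because these genes carry the results. They are RefSeq sequences of GRCm38.p6 on the strand of the gene, from 250 bases before the transcription start to 50 bases after it. The windows are chr7:142657447-142657746 on the minus strand for Igf2, chr1:72824230-72824529 on the plus strand for Igfbp2, chr11:7213874-7214173 on the minus strand for Igfbp3 and chr15:102143936-102144235 on the plus strand for Igfbp6. Capitals mark 4 motifs, each searched on both strands, and no marked run overlaps another. The GC box was searched as GGGCGG. The TATA box was searched as TATAAA, with TATATA as a variant of it. The E-box was searched as CACGTG.
Igf2: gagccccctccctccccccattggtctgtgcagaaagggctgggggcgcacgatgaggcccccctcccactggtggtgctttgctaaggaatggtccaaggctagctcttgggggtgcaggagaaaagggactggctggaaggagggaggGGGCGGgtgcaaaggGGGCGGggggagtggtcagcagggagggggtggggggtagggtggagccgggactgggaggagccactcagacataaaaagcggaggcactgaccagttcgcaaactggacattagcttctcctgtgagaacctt
Igfbp2: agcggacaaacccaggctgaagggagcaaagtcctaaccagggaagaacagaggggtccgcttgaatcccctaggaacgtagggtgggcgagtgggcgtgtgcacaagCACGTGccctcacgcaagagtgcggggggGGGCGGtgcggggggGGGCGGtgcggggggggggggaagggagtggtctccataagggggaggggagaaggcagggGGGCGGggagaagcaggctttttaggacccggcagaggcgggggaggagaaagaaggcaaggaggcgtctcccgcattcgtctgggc
Igfbp3: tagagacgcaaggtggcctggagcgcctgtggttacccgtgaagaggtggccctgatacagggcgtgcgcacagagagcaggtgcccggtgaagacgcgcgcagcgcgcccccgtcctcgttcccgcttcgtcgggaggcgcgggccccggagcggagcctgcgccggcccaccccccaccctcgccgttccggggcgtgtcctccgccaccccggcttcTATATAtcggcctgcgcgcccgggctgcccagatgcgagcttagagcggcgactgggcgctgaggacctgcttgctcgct
Igfbp6: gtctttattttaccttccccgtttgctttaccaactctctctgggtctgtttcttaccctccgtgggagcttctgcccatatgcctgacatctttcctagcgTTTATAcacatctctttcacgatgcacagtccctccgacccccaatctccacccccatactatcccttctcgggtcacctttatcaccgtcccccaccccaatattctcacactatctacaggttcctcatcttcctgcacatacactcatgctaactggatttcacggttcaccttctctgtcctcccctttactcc

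The Igf2 window, the last of its 4 in the RefSeq table, holds GGGCGG 2 times, at -100 to -95 and at -85 to -80 from the start. The third Igf2 window, not shown, holds GGGCGG 1 time, and the first and second hold none of the 4 motifs. The Igfbp2 window shown holds GGGCGG 3 times and CACGTG 1 time. A second Igfbp2 window, chr1:72825137-72825436, is not shown and holds none of the 4 motifs. The Igfbp3 window has TATATA at -30 to -25, and the Igfbp6 window has TATAAA only on the opposite strand, so that its complement is printed, at -148 to -143. Of all 32851 promoter windows of this length, 35.7% hold GGGCGG, 13.6% TATAAA, 5.67% TATATA and 7.15% CACGTG. The motifs were chosen after the sequences had been seen, and a match describes letters and not a bound site.

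Several secreted members were higher in IML samples, and the receptors were not called. In the same comparison with the somatic mean, 7 of the 14 meningeal and fibroblast markers were called higher and 3 of the 7 motoneuron markers lower in IML. Between IML samples and the mean of both somatic pools, 4 of 13 probe sets were called, all higher in IML, beside 5.52% called over the array and 3.44% called higher. They stood for Igf2, Igfbp2 and Igfbp3 and for the second probe set of Igf1. Between IML and LMN 5 of 13 were called, all higher in IML, beside 8.98% over the array and 5.46% called higher, and Igfbp6 joined the 4 others. Between IML and MMN limma called 0 of 13, with 3 at an unadjusted p under 0.05, beside 0.346% over the array. Between LMN and MMN 1 of 13 was called, Igfbp3, lower in LMN, beside 0.0564% over the array and 0.0322% called lower. The median difference of the 13 probe sets between IML and the somatic mean was 0.16, and that of all probe sets was -0.01.

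The number of members called depended on single animals, as did the number called over the array. Between IML and the somatic mean 2, 4, 0, 3 and 2 members were called without animals 1, 2, 3, 4 and 5. The array counts were 386, 650, 169, 397 and 164 in the same order, against 686 with all animals. Between IML and LMN 4, 6, 4, 5 and 3 members were called, beside array counts of 699, 935, 468, 734 and 371, against 1116. Between LMN and MMN 0, 0, 0, 1 and 0 members were called, beside array counts of 1, 0, 0, 5 and 0, against 7. Without the LMN sample of animal 2 the member counts were 3 between IML and the somatic mean, 5 between IML and LMN, and 1 between LMN and MMN. The array counts were then 529, 871 and 10.

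**Figure D1:**
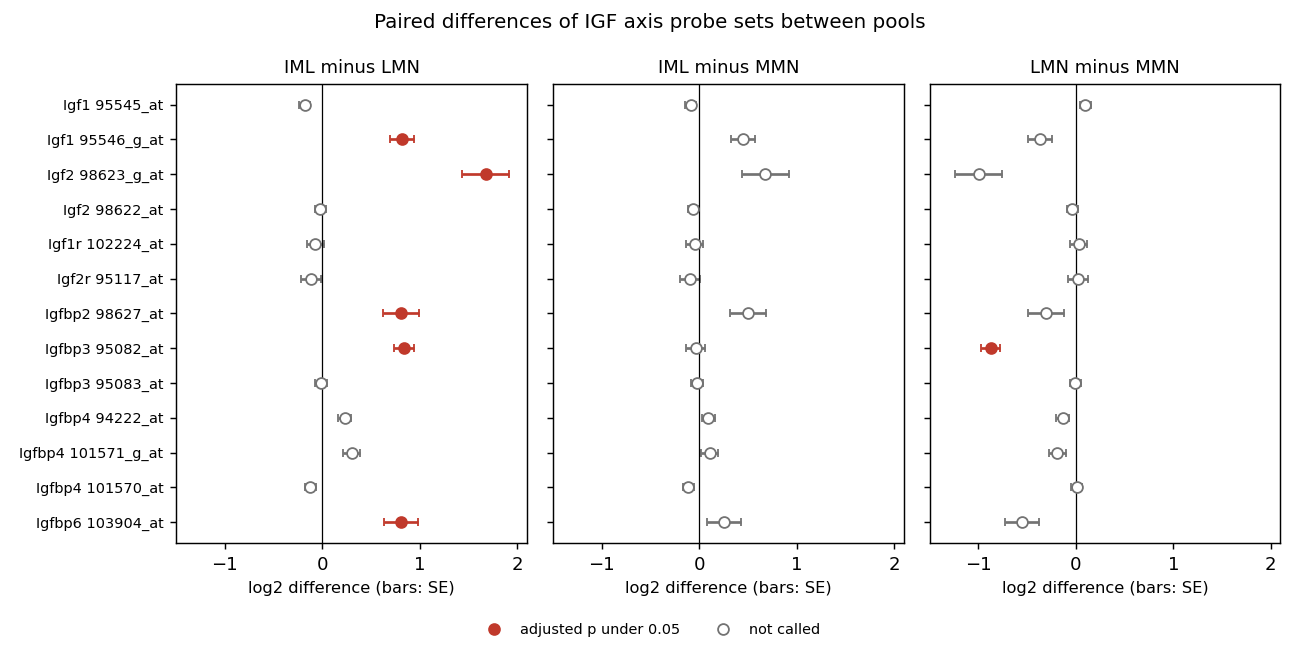
Paired log2 differences (horizontal axis) of the 13 IGF axis probe sets (rows) between IML and LMN, IML and MMN, and LMN and MMN samples; points are means of 5 animals, bars are SE, and filled points are called at an adjusted p under 0.05. The 5 called points of the first panel all lie to the right of 0, and the only called point of the last panel, Igfbp3, lies at -0.87.

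Igf2 encodes the growth factor best known from fetal growth, and its gene is imprinted. Its bright probe set, 98623_g_at, measured 12.89, 13.06, 12.59, 12.70 and 12.43 in the IML samples of animals 1 to 5. In the LMN samples of the same animals it measured 10.78, 12.20, 10.34, 10.44 and 11.51. In the MMN samples it measured 12.13, 12.89, 12.06, 10.96 and 12.22. The IML samples were tightly grouped and all stood above every LMN sample. The share of all probe sets on the array with such a gap is not given here. The MMN samples lay between the other pools and overlapped with both.

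Igf2 was higher in IML than in LMN by 1.68 ± 0.24, a 3.20-fold difference (limma adjusted p = 0.00292, higher in 5 of 5 animals). By animal, the difference was 2.11, 0.86, 2.24, 2.26 and 0.92. It was smaller in animals 2 and 5, whose LMN samples had the most Igf2. Against the somatic mean the difference was 1.18 ± 0.21 (limma adjusted p = 0.0112). Without animal 3 this value was 1.13 with an adjusted p of 0.0521, so the call was lost, whereas the call against LMN held without any 1 animal. Against MMN, IML samples differed by 0.68 ± 0.24 (limma adjusted p = 0.289), and LMN samples differed from MMN by -0.998 ± 0.242 (limma adjusted p = 0.165), with the same sign in all 5 animals and no call. The pool accounted for 60.6% of the spread of Igf2 over the 15 samples and the animal for 25.9%. The second Igf2 probe set, 98622_at, stood between 5.40 and 5.99 in every sample, under the array's median of 7.10, and its IML less LMN difference was -0.02 ± 0.06. No detection calls were used, so the level at which a dim probe set reads background is unknown, and suffixed probe sets such as 98623_g_at can bind related transcripts.

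Igf1 encodes the ligand that IGF1 receptors bind most strongly. Its bright probe set, 95545_at, measured 9.53, 9.49, 9.16, 9.48 and 9.33 in the IML samples of animals 1 to 5. In LMN samples it measured 9.75, 9.43, 9.37, 9.68 and 9.67, and in MMN samples 9.68, 9.42, 9.18, 9.63 and 9.51. All 3 pools overlapped. IML samples differed from LMN by -0.18 ± 0.06 (limma adjusted p = 0.0739), with animal 2 as the exception in sign, and from the somatic mean by -0.13 ± 0.05 (limma adjusted p = 0.146). The value against LMN was -0.24 with an adjusted p of 0.0338 without animal 2 and -0.22 with an adjusted p of 0.0455 without the LMN sample of animal 2. With each array centred on its median it was -0.20 with an adjusted p of 0.0468. LMN less MMN was 0.10 ± 0.06, positive in 5 of 5 animals and not called (limma adjusted p = 0.553).

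The second Igf1 probe set, 95546_g_at, gave differences of the other sign. It measured 6.90, 7.56, 6.84, 6.47 and 6.21 in IML samples, against 5.95, 6.71, 5.83, 5.87 and 5.54 in LMN samples and 6.26, 7.43, 6.22, 5.65 and 6.18 in MMN samples. Within every animal the IML sample was the highest of the 3, while all pools overlapped. Apart from animal 2, which was high throughout, every LMN sample lay below every IML sample. It was higher in IML than in LMN by 0.82 ± 0.12 (limma adjusted p = 0.00332) and than the somatic mean by 0.63 ± 0.11 (limma adjusted p = 0.00939). Without animal 3 the second value was 0.59 with an adjusted p of 0.0625, and the call was lost. The 2 Igf1 probe sets correlated at r = -0.38 over the 15 samples once animal means were taken out, so the array gives no single direction for Igf1. The mean of the _g_at probe set lay under the array's median.

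**Figure D2:**
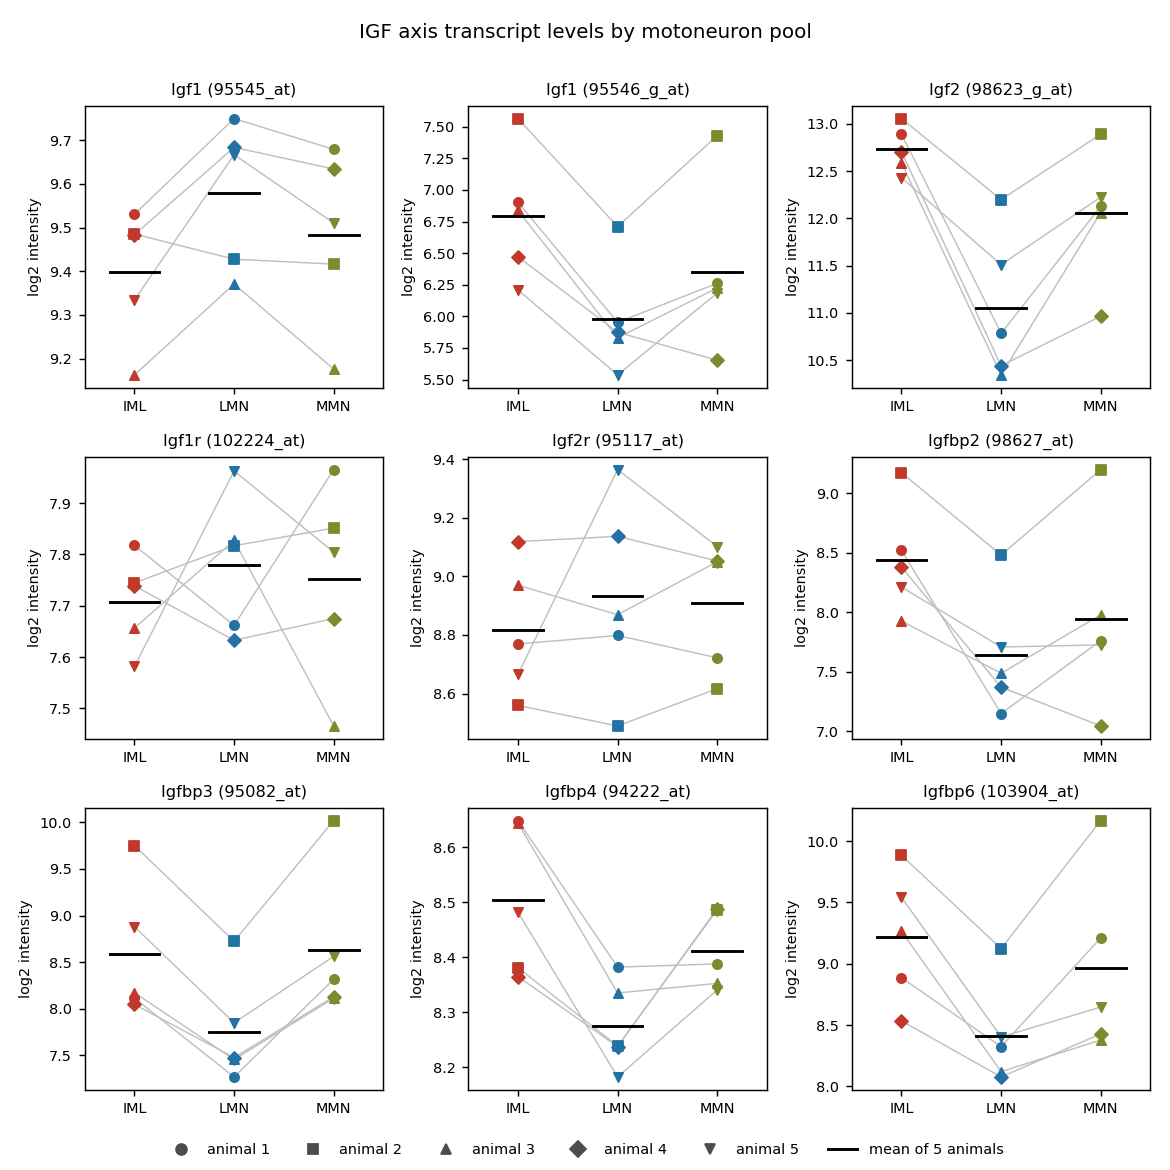
Log2 intensity (vertical axis) in the IML, LMN and MMN samples (horizontal axis) for the brightest probe set of the 8 genes and for the second Igf1 probe set; symbols mark the animals, grey lines join the samples of 1 animal and black bars are means of 5 animals. The IML samples of Igf2 lie between 12.43 and 13.06, above all LMN samples, and animal 2 lies highest in all 3 pools for Igf2, Igfbp2, Igfbp3 and Igfbp6.

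Neither receptor was called in any comparison. Igf1r, which encodes the signalling receptor, measured 7.58 to 7.82 with a median of 7.74 in IML samples, 7.63 to 7.96 with a median of 7.82 in LMN samples and 7.47 to 7.97 with a median of 7.80 in MMN samples. IML less the somatic mean was -0.06 ± 0.08, with a 95% interval from -0.23 to 0.11. Neither animal nor pool took most of its spread: 69.1% was left over after both. Igf2r, which encodes the scavenging receptor, measured 8.56 to 9.12 in IML samples, 8.49 to 9.36 in LMN samples and 8.62 to 9.10 in MMN samples. IML less the somatic mean was -0.10 ± 0.09, with a 95% interval from -0.30 to 0.09. Animal 5 had a difference of -0.57, and the other 4 animals lay between 0.01 and 0.02. Without animal 5 the value was 0.01, and it was never called. Most of the Igf2r spread, 68.4%, lay between animals, and animal 2, the highest for Igf2, was the lowest.

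Igfbp2 encodes a binding protein that is abundant in the fetal brain and in cerebrospinal fluid. It measured 8.52, 9.17, 7.93, 8.38 and 8.21 in the IML samples of animals 1 to 5, against 7.15, 8.48, 7.49, 7.37 and 7.71 in LMN samples and 7.76, 9.20, 7.98, 7.04 and 7.72 in MMN samples. In each animal the IML sample exceeded the LMN sample, but the pools overlapped. IML was higher than LMN by 0.80 ± 0.18, a 1.74-fold difference (limma adjusted p = 0.0214). The call was lost without animal 1 (0.66, adjusted p = 0.0886), without animal 5 (0.88, adjusted p = 0.0653) and without the LMN sample of animal 2 (0.76, adjusted p = 0.0570). Against the somatic mean the difference was 0.65 ± 0.16 (limma adjusted p = 0.0396). That call held only without animal 2: without animals 1, 3, 4 and 5 the values were 0.55, 0.77, 0.52 and 0.69 with adjusted p from 0.0725 to 0.122, and without the LMN sample of animal 2 it was 0.63 with an adjusted p of 0.0700. IML less MMN was 0.50 ± 0.18, positive in 3 of 5 animals and not called (limma adjusted p = 0.303).

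Igfbp3 encodes the main IGF carrier of the blood. Its bright probe set, 95082_at, measured 8.11, 9.75, 8.17, 8.05 and 8.88 in the IML samples of animals 1 to 5. In LMN samples it measured 7.27, 8.72, 7.46, 7.48 and 7.85, and in MMN samples 8.32, 10.02, 8.11, 8.13 and 8.56. In every animal the LMN sample was the lowest of the 3, and only the LMN sample of animal 2 reached into the range of the other pools. The IML samples, from 8.05 to 9.75, and the MMN samples, from 8.11 to 10.02, overlapped over most of their ranges. Once animal and pool were accounted for, 2.79% of the spread was left, the least among the 13 probe sets.

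Igfbp3 was lower in LMN than in MMN by 0.87 on the log2 scale with an SE of 0.10, a 1.83-fold difference (limma adjusted p = 0.00861, lower in 5 of 5 animals). Without animals 1, 2, 3 and 5 this value was -0.83, -0.77, -0.93 and -0.91 with adjusted p of 0.0827, 0.0534, 0.110 and 0.113, so the call held only without animal 4. The direction held in all 5 cases. With the animal as a random block the adjusted p was 0.167. Igfbp3 was higher in IML than in LMN by 0.84 ± 0.10, a 1.79-fold difference (limma adjusted p = 0.00117), and this call held without any 1 animal. IML less MMN was -0.04 ± 0.10, with a 95% interval from -0.25 to 0.18. The difference between IML and the somatic mean, 0.40 ± 0.09 (limma adjusted p = 0.0237) is the average of these gaps to LMN and to MMN. It lost its call without animals 1, 3 and 5, with values of 0.42, 0.40 and 0.33 and adjusted p of 0.0564, 0.0921 and 0.107, and with the animal as a random block (0.221). The dim probe set, 95083_at, stood between 6.44 and 6.81 in all samples, and its LMN less MMN difference was 0.00 ± 0.06.

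Igfbp4 encodes a binding protein that inhibits IGF action until proteases cut it. Its bright probe set, 94222_at, measured 8.65, 8.38, 8.64, 8.36 and 8.48 in IML samples, against 8.38, 8.24, 8.33, 8.24 and 8.18 in LMN samples and 8.39, 8.49, 8.35, 8.49 and 8.34 in MMN samples. The lowest IML sample fell just short of the highest LMN sample. IML less LMN was 0.23 ± 0.07 (limma adjusted p = 0.0538), positive in 5 of 5 animals and not called. The second probe set, 101571_g_at, gave 0.30 ± 0.09 (limma adjusted p = 0.0536), also positive in 5 of 5 animals. With the animal as a random block both were called, with adjusted p of 0.0241 and 0.0247. The dimmest probe set, 101570_at, stood between 4.65 and 5.05 in all samples and gave -0.12 ± 0.06.

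Igfbp6 encodes a binding protein that prefers IGF2 over IGF1. It measured 8.89, 9.88, 9.26, 8.53 and 9.54 in IML samples, against 8.32, 9.12, 8.12, 8.08 and 8.40 in LMN samples and 9.21, 10.17, 8.38, 8.43 and 8.65 in MMN samples. The LMN sample was the lowest of the 3 in every animal, while IML and MMN changed places between animals. IML was higher than LMN by 0.81 ± 0.17, a 1.76-fold difference (limma adjusted p = 0.0170). Without animal 3 and without animal 5 the value was 0.73 each time, with adjusted p of 0.0617 and 0.0641, and the call was lost. LMN less MMN was -0.56 ± 0.17 (limma adjusted p = 0.247), negative in 5 of 5 animals and not called. IML less the somatic mean was 0.53 ± 0.15 (limma adjusted p = 0.0649).

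Several members varied together. After animal means were taken out, Igf2 correlated with Igfbp2 at r = 0.86, and Igfbp3 correlated with Igfbp6 at r = 0.87, over the 15 samples. Igf2 correlated with Igfbp3 at 0.73 and with Igfbp6 at 0.69, and the bright Igf1 probe set correlated with Igf2 at -0.81. These samples share animals, pools and the amplification of each capture, so the values describe this set only. Before animal means were taken out, animal 2 was the highest of the 5 in every pool for Igf2, Igfbp2, Igfbp3, Igfbp6 and 95546_g_at. The animal accounted for 57.6% of the spread of Igfbp2, 68.4% for Igfbp3 and 56.3% for Igfbp6.

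Genes of other symbols with the most similar pattern were ranked by the same correlation with animal means taken out, over 15 samples. Closest to Igf2 were Gdpd3 (0.954), Myadm (0.943) and Rassf1 (0.941). Closest to Igfbp2 were Slk (0.959), Nid2 (0.936), which encodes a basement membrane protein, and Armc10 (0.934). Closest to Igfbp3 were Bmp6 (0.938), a growth factor gene, Mgp (0.930) and Idh2 (0.927). Closest to Igfbp6 were Selenbp1 (0.984), Islr (0.971) and Lbp (0.965). Mgp and Islr are among the 14 meningeal and fibroblast markers, and the other genes named here are in none of the marker lists.

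Markers of several other cell types varied together with most members. For the marker counts, 5.52% were called over the array between IML and the somatic mean and 8.98% between IML and LMN. Of the 14 meningeal and fibroblast markers, 7 were called higher in IML than in the somatic mean, 11 higher in IML than in LMN, and none in the other 2 comparisons, where limma gave 6 (IML and MMN) and 9 (LMN and MMN) at an unadjusted p under 0.05. Of the 7, all were still called without animal 2 or its LMN sample, 6 without animal 1, 4 without animal 3, 4 without animal 4 and 0 without animal 5. Of the 11, 8 were still called without the LMN sample of animal 2, and 4 to 10 without 1 animal, the fewest without animal 5. With animal means taken out, the mean of the 14 correlated with Igfbp6 at r = 0.94, with Igf2 at 0.81, with Igfbp4 and Igfbp3 at 0.80 each and with Igfbp2 at 0.66. It correlated with the bright Igf1 probe set at -0.78, with Igf2r at -0.45 and with Igf1r at -0.19.

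Of the 14 microglia and macrophage markers 6 were called higher in IML than in the somatic mean, and their mean level was 6.75 to 7.23 in IML samples, 6.53 to 6.69 in LMN samples and 6.57 to 6.88 in MMN samples. Of these 6, 2 were still called without animal 3 and 2 without animal 5. Against LMN 7 of the 14 were called higher, with 4 kept without animal 3, 3 without animal 5 and 4 without the LMN sample of animal 2. The mean of the 14 correlated with Igfbp4 at r = 0.86 and with Igfbp2 at 0.72, above the meningeal values for the same genes. Of the 13 endothelial and mural markers 1 was called higher in IML than in the somatic mean, a call lost without animal 1, 3, 4 or 5. Against LMN 3 were called higher in IML, of which 1 was kept without animal 1, 1 without animal 3, 0 without animal 5 and 1 without the LMN sample of animal 2. Between LMN and MMN limma called 0 of the 13, with 7 at an unadjusted p under 0.05 and a median difference of -0.31. Their mean correlated with Igfbp3 at 0.83, with Igfbp6 at 0.82 and with Igfbp4 at 0.81. Of the 9 astrocyte markers 1 was called higher in IML than in the somatic mean, a call lost without animal 1, 4 or 5. Against LMN 2 were called higher in IML, with 1 kept without animal 3 and 0 without animal 5. The mean of the 9 correlated with Igfbp4 and Igfbp2 at 0.71 each. Limma called 0 of the 9 oligodendrocyte markers against LMN, with 2 at an unadjusted p under 0.05. Of 5 interneuron markers 1 was called higher and 1 lower in IML than in LMN, and each call was lost without either of 2 animals. Neither of the 2 measured red blood cell markers was called against LMN, with 1 at an unadjusted p under 0.05 in limma. The mean of these 2 correlated with Igfbp4 and Igfbp6 at 0.72 each.

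Of the 7 motoneuron markers 3 were called lower in IML than in the somatic mean and 5 lower than in LMN. Against MMN 1 was called lower, beside 0.346% called over the array. Of the 3, 1 was still called without animal 1, 2 or 3 and 2 without animal 4 or 5. Of the 5, the numbers still called were 2, 5, 1, 3 and 2 without animals 1 to 5. The neurofilament gene Nefh kept its calls against the somatic mean and against LMN without any 1 animal. Its call against MMN was lost without animal 2, 3, 4 or 5, with limma adjusted p from 0.0653 to 0.213. That call was also lost without the LMN sample of animal 2 (limma adjusted p = 0.0633). The mean of the 7 correlated with the bright Igf1 probe set at 0.84, with Igf2 at -0.74, with Igfbp4 at -0.75 and with Igfbp2 at -0.70. The samples of these correlations share animals, pools and captures.

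**Figure D3:**
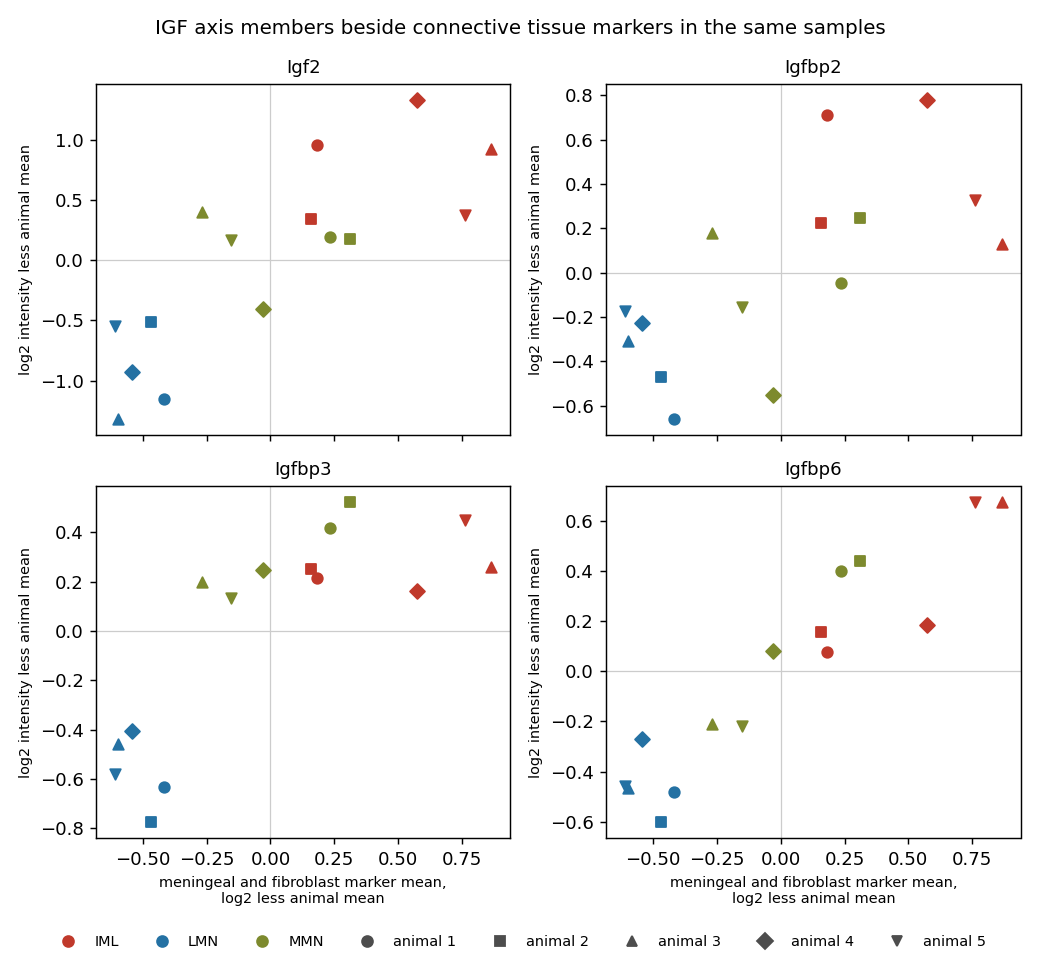
Log2 intensity of Igf2, Igfbp2, Igfbp3 and Igfbp6 (vertical axes) against the 14 meningeal and fibroblast markers averaged (horizontal axis), each less the mean of its animal; colours mark the pools and symbols the animals. The LMN samples lie at the lower left in every panel, and the Igfbp6 points follow the markers most closely (r = 0.94).

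The differences were recomputed with the meningeal and fibroblast marker mean as a covariate, which raised the median SE 1.92 times and left 0 members called by limma. Over the array 2 probe sets stayed called between IML and the somatic mean and 0 between IML and LMN, against 686 and 1116. With this covariate Igf2 differed between IML and LMN by 1.61 ± 0.55 (limma adjusted p = 0.743), against 1.68 ± 0.24 without it. Igfbp2 differed by 0.99 ± 0.41 and 95546_g_at by 0.78 ± 0.28. Igfbp3 differed by 0.57 ± 0.21 between IML and LMN and by -0.73 ± 0.14 between LMN and MMN. Igfbp6 differed by -0.13 ± 0.22 between IML and LMN, against 0.81 without the covariate. With the motoneuron marker mean as the covariate, the IML less LMN values were 1.52 ± 0.42 for Igf2, 0.68 ± 0.32 for Igfbp2, 0.90 ± 0.17 for Igfbp3 and 0.98 ± 0.30 for Igfbp6, none of them called. In that model 0 probe sets over the whole array were called between IML and LMN. These covariates moved with the pools, and the part of other cell types in the results was not tested beyond these values.

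**Figure D4:**
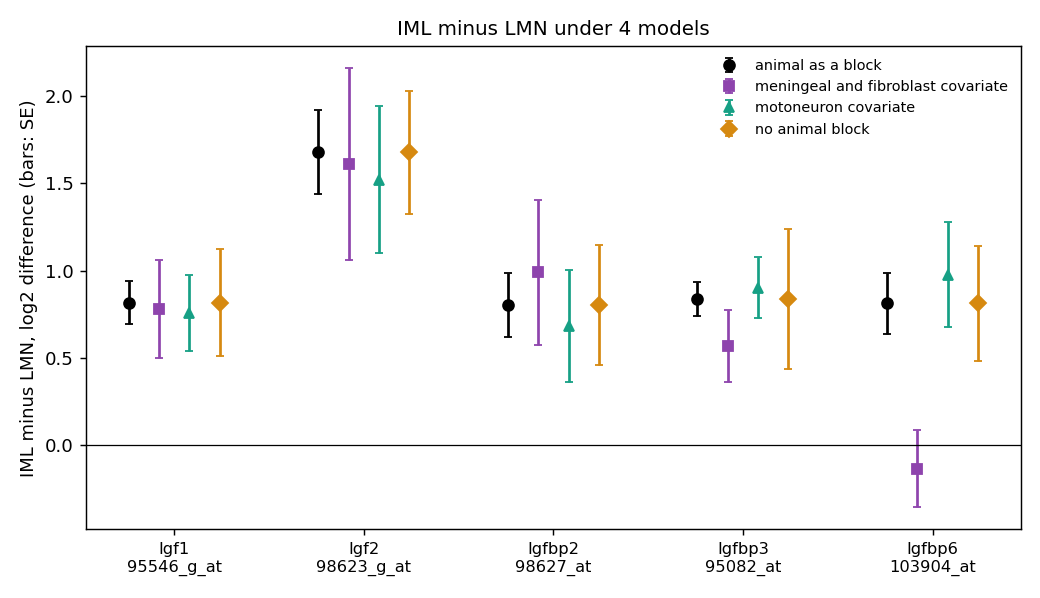
IML less LMN log2 difference (vertical axis) of the 5 called probe sets under 4 models; bars are SE. Without the animal block the values are the same by design, and only their SE changes. Igf2 lies at 1.61 with the meningeal and fibroblast covariate (limma adjusted p = 0.743). With the motoneuron covariate it lies at 1.52 (limma adjusted p = 0.210), and neither is called. Igfbp6 lies at -0.13 with the meningeal and fibroblast covariate and at 0.98 with the motoneuron covariate.

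Beyond the ligands, receptors and main binding proteins, 10 other binding and IGFBP-related proteins were measured of 16 listed. Between IML and the somatic mean 3 of the 10 were higher and 1 was lower in IML, beside 5.52% called over the array (8.98% against LMN). The matricellular genes Ccn2 (0.77 ± 0.15, limma adjusted p = 0.0162), Ccn3 (1.28 ± 0.26, 0.0185) and Ccn4 (0.33 ± 0.09, 0.0496) were higher. Htra1, which encodes a secreted serine protease that cuts binding proteins, was lower by -0.71 ± 0.15 (adjusted p = 0.0237). Against LMN the same 4 were called, Ccn2 at 1.15, Ccn3 at 1.62, Ccn4 at 0.37 and Htra1 at -0.77, and Igfbp7, a low-affinity relative, was higher in IML by 0.20 ± 0.05 (limma adjusted p = 0.0328). Only Ccn2 against LMN held its call without any 1 animal. Ccn3 lost its call against LMN without animal 5 (adjusted p = 0.0564), and Htra1 without animal 3, 4 or 5 (adjusted p from 0.0505 to 0.0976). Ccn4 and Igfbp7 lost theirs without each of the 5 animals, with adjusted p from 0.0551 to 0.129 and from 0.0625 to 0.126. Without the LMN sample of animal 2, Igfbp7 against LMN (0.0824) and Ccn4 against the somatic mean (0.0545) were also not called. Against the somatic mean the 4 genes lost their calls without between 2 and 5 of the animals, with adjusted p up to 0.173. The value of Ccn3 against LMN was -0.043 with the meningeal and fibroblast covariate and 1.96 with the motoneuron covariate. That of Htra1 was -0.95 and -0.086 in the same order, and none of these values was called. Igfals, the acid-labile subunit that joins IGF and IGFBP3 in the blood, was not called (-0.10 ± 0.05 against the somatic mean), nor were Igfbp1 and Igfbpl1.

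Of the 14 measured IGFBP proteases and protease inhibitors, 1 was higher and 1 lower in IML than in the somatic mean, beside 5.52% called over the array. Against LMN 2 were higher and 1 lower, beside 8.98%. Timp3, which encodes a matrix-bound inhibitor of metalloproteinases, was higher by 0.72 ± 0.12 against the somatic mean (limma adjusted p = 0.00958) and by 1.02 ± 0.14 against LMN (0.00249). Mmp9, which encodes a gelatinase, was lower by -0.77 ± 0.15 against the somatic mean (limma adjusted p = 0.0145) and by -0.97 ± 0.17 against LMN (0.00657). Plat, the gene of tissue plasminogen activator, was higher than in LMN by 0.55 ± 0.12 (limma adjusted p = 0.0184). Timp3 and Mmp9 kept their calls against LMN without any 1 animal. Against the somatic mean Timp3 lost its call without animal 3 or 5, with values from 0.62 to 0.72 and adjusted p from 0.0555 to 0.0597. Mmp9 lost it without animal 4 or 5, with values from -0.76 to -0.74 and adjusted p from 0.0580 to 0.0790. Against LMN, Timp3 was at 0.47 with the meningeal and fibroblast covariate and at 0.98 with the motoneuron covariate. Mmp9 was at -1.33 and -0.50 in the same order, and none of these values was called. Plat lost its call without animal 1, 2, 3 or 5 (0.48 to 0.55, adjusted p from 0.0525 to 0.0785) and without the LMN sample of animal 2 (adjusted p = 0.0504).

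Downstream of the receptors, 1 of 44 measured genes was called against the somatic mean (2.27%, beside 5.52% over the array) and 5 of 44 against LMN (11.4%, beside 8.98%). Of 15 receptor substrates and adaptors only Gab1, a docking protein gene, was called: 0.42 ± 0.10 higher in IML than in the somatic mean (limma adjusted p = 0.0354) and 0.72 ± 0.12 higher than in LMN (0.00453). Its call against the somatic mean was lost without animal 2, 3, 4 or 5, with values from 0.33 to 0.47 and adjusted p from 0.0560 to 0.124. Of 20 genes of the PI3 kinase, AKT and mTOR branch, none was called against the somatic mean, with 3 at an unadjusted p under 0.05 in limma, and the transcription factor gene Foxo3 was higher than in LMN by 0.33 ± 0.09 (adjusted p = 0.0344). Foxo3 lost that call without animal 1, 3, 4 or 5 (0.28 to 0.39, adjusted p from 0.0617 to 0.141). Of 9 genes of the RAS and MAP kinase branch, limma called none against the somatic mean, with 5 at an unadjusted p under 0.05. Against LMN the GTPase gene Nras (0.37 ± 0.10, limma adjusted p = 0.0494) and the kinase gene Araf (0.29 ± 0.07, 0.0299) were higher in IML, and the exchange factor gene Sos1 was lower (-0.24 ± 0.05, 0.0139). These 3 lost their calls without 3 or 4 of the 5 animals: Nras without 1, 3, 4 or 5 (0.27 to 0.40, adjusted p up to 0.182), Araf without the same animals (0.24 to 0.30, up to 0.114) and Sos1 without 3, 4 or 5 (-0.24 to -0.21, up to 0.0817). With the meningeal and fibroblast covariate the values against LMN were 0.38 for Gab1, 0.051 for Nras and -0.014 for Araf. With the motoneuron covariate they were 0.81, 0.45 and 0.24 in the same order, and none was called with either covariate. Nras was also not called without the LMN sample of animal 2 (adjusted p = 0.0816).

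Among 10 genes of mannose-6-phosphate sorting, the cargo route that Igf2r serves, none was called against the somatic mean, with 3 at an unadjusted p under 0.05 in limma. Compared with LMN, 1 was higher and 1 lower in IML, beside 8.98% called over the array. Against LMN, Hexa, a lysosomal hexosaminidase gene, was higher by 0.61 ± 0.16 (limma adjusted p = 0.0324). M6pr, which encodes the cation-dependent mannose-6-phosphate receptor, was lower by -0.33 ± 0.07 (limma adjusted p = 0.0186). Hexa lost its call without animal 2, 3, 4 or 5 (0.51 to 0.66, adjusted p up to 0.142) and without the LMN sample of animal 2 (0.0724). M6pr lost it without animal 1, 3, 4 or 5 (-0.37 to -0.26, adjusted p up to 0.0749). Against LMN, Hexa was at -0.066 with the meningeal and fibroblast covariate and at 0.99 with the motoneuron covariate. M6pr was at -0.46 and -0.16 in the same order, and none of these values was called.

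Of 12 measured imprinted genes, the class to which Igf2 belongs, only Cdkn1c was called against the somatic mean, beside 5.52% over the array. Compared with LMN, 3 were higher and 1 lower in IML, beside 8.98%. Cdkn1c, a cell cycle inhibitor gene that neighbours Igf2 in the same imprinted region, was higher by 1.04 ± 0.22 (limma adjusted p = 0.0211), and against LMN by 1.56 ± 0.25 (0.00454). The call against LMN held without any 1 animal, and the call against the somatic mean was lost without animal 2, 3 or 5 (0.87 to 1.07, adjusted p from 0.0542 to 0.104). Against LMN, Peg3 (0.44 ± 0.12, limma adjusted p = 0.0395) and Dcn, a matrix proteoglycan gene (1.61 ± 0.44, 0.0426), were higher in IML, and Mest was lower (-1.12 ± 0.30, 0.0419). Peg3 lost its call without animal 1, 3, 4 or 5 (0.35 to 0.47, adjusted p up to 0.136). Dcn lost its call without animal 3, 4 or 5 (1.22 to 1.51, up to 0.165) and without the LMN sample of animal 2 (0.0777). Mest lost its call without animal 1, 3 or 5 (-1.08 to -0.82, up to 0.172). With the meningeal and fibroblast covariate the value of Dcn against LMN turned to -1.14 ± 0.27 and that of Cdkn1c was 0.85. Mest was at -0.80 and Peg3 at 0.74 with that covariate. With the motoneuron covariate Mest was at -0.11, Peg3 at 0.039, Dcn at 2.32 and Cdkn1c at 1.25. None of these values was called.

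Of the insulin family ligands 3 were measured and none was called, with Rln1, a relaxin gene, at -0.03 ± 0.05 against the somatic mean and 0 of 3 at an unadjusted p under 0.05 in limma. Igf2bp1, which encodes a protein that binds Igf2 mRNA, was at -0.07 ± 0.06 and not called. No gene of these 9 pathway lists was called between IML and MMN or between LMN and MMN.

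The 2 arrays of each sample gave a second view of the members. Their SD was 0.16 for Igf2, 0.17 for Igfbp2, 0.12 for Igfbp3 and 0.09 for Igfbp6, against a median of 0.13 over all probe sets. The residual SD, left after pool and animal, was 0.45 for Igf2, 0.34 for Igfbp2, 0.17 for Igfbp3 and 0.32 for Igfbp6. Between IML and LMN 5 members were called with each set of arrays on its own, beside array counts of 601 and 713. Between IML and the somatic mean 1 was called with the first set and 5 with the second, beside array counts of 304 and 619.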

How the data were processed

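The deposited values are array intensities on a linear scale. Per the labels, RNA of each pool was split, amplified in 2 rounds, hybridised to Affymetrix arrays and normalized with a tool named R-pack, and inverse logs were deposited. No source used here says how that tool works or which version ran. Amplification from few cells favours 3' ends and adds spread. No scanner values or detection calls were used. Array medians ran from 131.69 to 145.908.

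Of 12488 probe sets, 66 controls were left out. Of the rest, 10833 had 1 gene symbol, 396 several and 1193 none, and probe sets with several symbols were tested but not named. Symbols of 10817 were taken through the gene identifier from RefSeq's GRCm38.p6 table. A gene with several probe sets was led by the one with the highest mean.

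Values were taken to log2 and the 2 arrays of a sample averaged. Models with pool and animal as fixed terms were fitted to all 15 samples with limma 3.58.1 in R 4.3.3 (lmFit and eBayes), two-sided, with Benjamini-Hochberg adjustment over 12422 probe sets at 0.05. The animal was the replicate block, since per the labels each animal supplied every pool. As a check of this pairing, deviations from pool means correlated between same-animal samples at 0.288 to 0.747 over 15 pairs. Arrays of 1 sample correlated at 0.983 to 0.998. The steps were tested on simulated data.

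All IGF axis probe sets are named. From each pathway list up to 4 called genes per comparison are named by smallest p, and with none called the gene with the smallest p against the somatic mean. The members, gene lists and marker lists were chosen with earlier results of these data known. Alternatives changed the block, the arrays used, the scaling, an offset or floor of 32, a filter on dim probe sets, the variance model, the threshold (0.01), marker covariates, the pools fitted and the animals included. Leaving out the LMN sample of animal 2 was added after the data had been seen. No protein sequences were used here. The number of animals limits the precision.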

Additional observations from a re-analysis of the deposited data

Results flagged for a closer look

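Among the 39 groups of 5 samples formed by the 13 probe sets and 3 pools, 2 held a sample far from the other 4 of its pool, where chance alone gives about 1 in 20 such groups. The MMN sample of animal 2 had an Igfbp3 level of 10.02 on 95082_at, and the other MMN samples lay between 8.11 and 8.56. Animal 2 was also the highest for this probe set in IML and in LMN. Without animal 2, LMN less MMN was -0.77 with a limma adjusted p of 0.0534, against -0.87 and 0.00861 with it.

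The IML sample of animal 1 had an Igf2 level of 5.94 on the dim probe set 98622_at, and the other IML samples lay between 5.46 and 5.52. Animal 1 was also the highest animal for this probe set over all pools, with a mean of 5.97.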

How the results depend on the processing

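Without the replicate block for the animal, the members called fell to 0 between IML and the somatic mean, 1 between IML and LMN and 0 between LMN and MMN, and the array counts to 46, 135, 4 (IML and MMN) and 0, with a median SE 1.46 times as large. Igf2 kept its call between IML and LMN in that model. With the meningeal and fibroblast covariate 0 members were called in each comparison, and the array counts were 2 against the somatic mean, 0 for IML less LMN, 3 for IML less MMN and 0 for LMN less MMN; unlabelled counts below keep this order. With the motoneuron covariate 0 members were called in the first 2 comparisons and the array counts were 0, 0 and 0 in the first 3. Between LMN and MMN 1 member stayed called with that covariate, with an array count of 6. The meningeal and fibroblast covariate turned the IML less LMN value of Igfbp6 to -0.13, of Araf to -0.014, of Ccn3 to -0.043, of Hexa to -0.066 and of Dcn to -1.14, none called.

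Leaving out 1 animal gave 0 to 4 members between IML and the somatic mean, 3 to 6 between IML and LMN, and 0 to 1 between LMN and MMN. The array counts ran from 164 to 650, from 371 to 935, from 0 to 42 for IML less MMN and from 0 to 5 for LMN less MMN, against 686, 1116, 43 and 7. A random block left 0 members between LMN and MMN, with array counts of 67 for IML less MMN and 4 for LMN less MMN. The first set of arrays alone gave 1 member against the somatic mean, with array counts of 304, 601 and 9, and the second gave array counts of 713 for IML less LMN and 3 for LMN less MMN. A floor of 32 gave 2 members against the somatic mean and array counts of 282, 717 and 10. A threshold of 0.01 gave 1 and 3 members in the first 2 comparisons and array counts of 146, 304, 7 and 4. An offset of 32 gave an array count of 22 for IML less MMN, and the filter on dim probe sets 4 for LMN less MMN. With only the pools compared, the array counts were 705 for IML less LMN, 6 for IML less MMN and 67 for LMN less MMN. Without the LMN sample of animal 2 they were 21 for IML less MMN and 10 for LMN less MMN.

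Quantile scaling, median centring and the other variance model moved no count of members or of the array by over 1.5 times. With the median over probe sets in place of the brightest, Igf2 differed between IML and LMN by 0.83 and Igf1 by 0.32. Signal over background could not be assessed.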
